A study of Mus musculus with 9 samples.

Results

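The liver response common to FGF19WT and FGF19ΔKLB was read by setting all 6 treated libraries, 3 per form, against the 3 vehicle libraries, which together make up all 9 libraries of the study. All groups were db/db mice, a strain with a broken leptin receptor gene that turns obese and diabetic, so the vehicle group carries the same defect. Treatment lasted 12 weeks, with PBS as vehicle, with FGF19WT or with FGF19ΔKLB, and total RNA of the liver was sequenced. The labels give neither age, sex, dose nor route, and the column headers carry the code F19_HBS for the FGF19ΔKLB group without saying what it stands for. Whether the libraries of a group come from separate animals is not labelled either, and the p-values below reflect only how far these samples spread. A gene was taken as part of the common response where all 6 treated libraries lay on the same side of all 3 vehicle libraries. This held for 1865 of 18142 genes tested (10.3%), 894 above vehicle (4.93%) and 971 below it (5.35%).

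FGF19 is a hormone of the small intestine, released when bile acids return from the gut. On hepatocytes it binds the receptor FGFR4 together with the co-receptor β-klotho (gene Klb) and signals through the ERK kinase cascade. It is best known for switching off Cyp7a1, the rate-limiting enzyme of bile acid synthesis, and in rodent models it also lowers the fat stored in the liver. Fat in hepatocytes sits in lipid droplets, whose size and turnover are set by proteins on their surface such as perilipins and CIDE proteins.

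Each library held 65.1 to 73.3 M counts, and since 1 read pair gives about 4 counts, this stands for 16.3 to 18.3 M read pairs. Levels are given as CPM, that is, counts relative to a library total that TMM factors adjust, and log2 fold changes as treated over vehicle. Albumin (Alb) took 8.6% to 13.5% of the counts in vehicle and 8.7% to 21.1% in the treated libraries, so the liver's main secretory transcript was present in each library. FGF19WT libraries 2 and 3 stood apart from the other 7 on the first principal component, which held 48.9% of the variance: they lay at 129.8 and 169.9, and the others between -64 and -7.9. Counts and calls are therefore also given without these 2 libraries, a choice made from their own values in these data. The treated group then holds FGF19WT library 1 and the 3 FGF19ΔKLB libraries. Values of that fit therefore speak mostly for FGF19ΔKLB and not for both forms alike.

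With the 6 treated libraries as 1 group, edgeR's quasi-likelihood test passed 18 of 18142 genes at an adjusted p under 0.05 (0.0992%). Of these, 4 were higher (0.022%) and 14 lower (0.0772%) with treatment, and all 18 also had no overlap between treated and vehicle libraries. The 14 that fell include 3 proteins of lipid droplets, the CIDE proteins Cidea and Cidec and the perilipin Plin5. Unadjusted p-values were under 0.05 for 2215 genes (12.2%). Most genes without overlap were separated by little: the nearest treated and nearest vehicle library lay a median of 0.13 apart on the log2 scale for the 894 genes above vehicle and 0.15 for the 971 below. The gap passed 1, a doubling, for 37 and 74 genes.

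The calls rested on few libraries. Leaving out vehicle library 1 or vehicle library 2 left 0 genes past the test, with 1312 and 1512 at an unadjusted p under 0.05. Without vehicle library 3, 7 genes were called, 4 of them among the 18. Without FGF19ΔKLB library 1, 2 or 3, 6, 3 and 1 were called, and without FGF19WT library 2 or 3, 10 and 9, all of them among the 18. Without FGF19WT library 1, 10 were called, 8 of them among the 18. Without FGF19WT libraries 2 and 3 together, 79 genes were called higher and 96 lower of 17601 (0.449% and 0.545%), and all 18 genes above were among those called. Then 1430 genes above and 1508 below had no overlap (8.12% and 8.57%). With FGF19WT library 1 as the only library of its form, these counts speak mostly for FGF19ΔKLB. The direction split depended on the scaling: 47.9% of the genes without overlap lay above vehicle with TMM factors, 28.4% with library totals alone (502 above, 2.77%, and 1266 below, 6.98%) and 32.5% on the deposited FPKM values (380 above, 3.54%, and 790 below, 7.37%, of 10723). Other tests called other numbers over all genes: DESeq2 called 2.72% higher and 1.36% lower, limma on log2(FPKM + 1) 0.0933% and 0.578%, a model with 3 groups 0.0386% and 0.204%, and a replicate block 0.00551% and 0.022%. Of the genes found with TMM, 500 of 894 above vehicle and 871 of 971 below it had no overlap on FPKM either, read without a filter on FPKM. Among the 10723 genes past that filter, 354 above and 516 below had none on both scales.

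**Figure D1:**
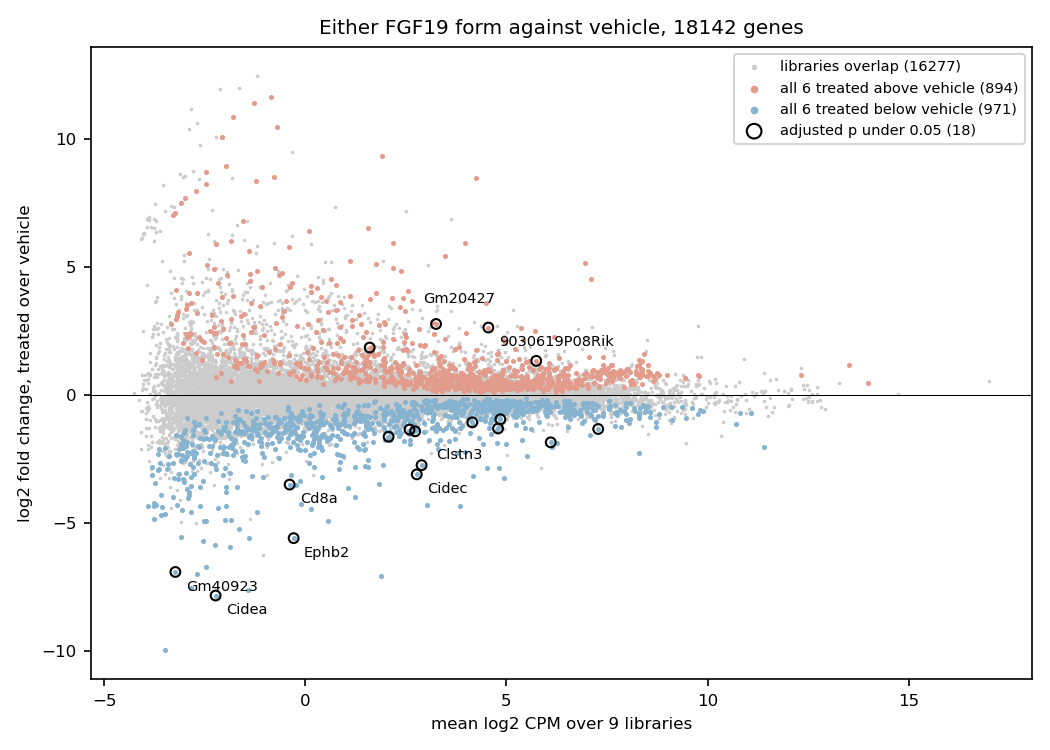
Each point is 1 of 18142 genes tested, with its mean level in log2 CPM on the horizontal axis and the log2 fold change of the 6 treated over the 3 vehicle libraries on the vertical axis. Coloured points have no overlap between treated and vehicle libraries (894 above, 971 below), and the 18 circled genes passed the edgeR test; most circles lie below 0.

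Of 15 lipid droplet proteins tested, 3 fell (Cidea, Cidec and Plin5), where 0.0772% of all genes were called lower. Without overlap, 5 lay below vehicle and 1 above, beside 5.35% and 4.93% over all genes. This list was written with earlier results of these data known. Its members had 10 negative and 5 positive log2 fold changes, with a median of -0.29 (-0.53 on FPKM) beside 0.02 over all genes. Cidec, also called FSP27, fuses droplets into larger ones, and its levels were 33.6, 30.5 and 25.3 CPM in vehicle, 3.93, 4.01 and 1.35 with FGF19WT and 3.07, 5.02 and 3.52 with FGF19ΔKLB. Every treated library was far below every vehicle library, and the 2 forms covered the same low range. Cidec on chromosome 6, from 113424634 to 113435760, fell to 11.7% of its vehicle level (-3.10 on the log2 scale, SE 0.32, adjusted p = 0.0178 in edgeR) and was called in 5 of 9 fits that left out 1 library.

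Cidea, a relative of Cidec that also enlarges droplets, was at 11.2, 3.89 and 2.93 CPM in vehicle. In the treated libraries it was listed at 0 in 4, at 0.0879 CPM in FGF19WT library 1 and at 0.0655 in FGF19ΔKLB library 3. Treatment thus left Cidea at or near the limit of detection in every library, with 334 read pairs over the 3 vehicle libraries and 2 over the 6 treated ones. The vehicle level per unit of depth was 313 times the treated one, with a 95% interval of 85.8 to 2590 that covers counting error only. The fitted log2 fold change of -7.83 (SE 1.09, adjusted p = 0.0468 in edgeR) rests on those few reads, and the call was lost in each of the 9 fits that left out 1 library (adjusted p 0.0526 to 0.262). A gene on the opposite strand, B430212C06Rik, overlaps Cidea, and the counting is not stated to use strand.

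Plin5, the perilipin that ties droplets to mitochondria in tissues that burn fat, stood at 56.3, 55.2 and 41.3 CPM in vehicle. With FGF19WT it was at 18, 19.2 and 19.7 CPM and with FGF19ΔKLB at 25.5, 21 and 20.2. The 6 treated values lay close together, all below the lowest vehicle library. Plin5 fell by 1.31 on the log2 scale (SE 0.14, adjusted p = 0.0184 in edgeR), to 40.5% of vehicle, and was called in 5 of 9 fits that left out 1 library.

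Clstn3 encodes a calsyntenin, of which a form made in fat cells sits on lipid droplets; gene counts do not separate the forms. Its vehicle libraries were at 35.6, 27.8 and 17.8 CPM and spread more than the treated ones, which were at 6.18, 4.24 and 4.15 with FGF19WT and 3.21, 2.81 and 3.72 with FGF19ΔKLB. All treated libraries were well below the lowest vehicle library. Clstn3 fell by 2.74 on the log2 scale (SE 0.27, adjusted p = 0.0178 in edgeR) and was called in 6 of 9 fits that left out 1 library.

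The other lipid droplet genes without overlap did not pass the test. Plin4, a perilipin of adipocytes, stood at 103 to 195 CPM in vehicle and 4.02 to 54.8 in treated libraries, with a treated median of 10.1 (adjusted p = 0.243 in edgeR). Fitm2, which helps droplets bud from the endoplasmic reticulum, stood at 41.1 to 62.8 CPM in vehicle and 25.2 to 36.4 with treatment (adjusted p = 0.157). Abhd5, the co-activator of the first triglyceride lipase, was the only member above vehicle, at 26.2 to 27.6 CPM against 28.8 to 46.5 with treatment (adjusted p = 0.372), and its libraries overlapped under library totals and on FPKM. The most abundant perilipin, Plin2, did not share the pattern: it stood at 426 to 752 CPM in vehicle and 423 to 1197.4 in treated libraries, with a log2 fold change of 0.09 that turned to -0.22 without FGF19WT library 2 and to -0.08 without vehicle library 3.

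Among 14 genes of PPARγ and triglyceride synthesis, 0 passed edgeR (4 had an unadjusted p under 0.05, 3 passed DESeq2 and 1 passed limma on FPKM), and 3 lay below vehicle without overlap. Over all genes 5.35% did so, and the median log2 fold change of these 14 was -0.01. Mogat1, which makes diacylglycerol, stood at 7.17, 6.94 and 4.78 CPM in vehicle and at 0.203 to 1.52 with treatment (median 0.535). The highest treated library was below the lowest vehicle one, and the log2 fold change was -3.19 (SE 0.50, adjusted p = 0.0896 in edgeR). Without FGF19WT libraries 2 and 3 it was -2.89 with an adjusted p of 0.0271. Cd36, a fatty acid carrier of the cell surface, stood at 196 to 218 CPM in vehicle and 40 to 149 with treatment (adjusted p = 0.279). Lpin2, which makes diacylglycerol from phosphatidic acid, stood at 244 to 258 CPM in vehicle and 88.4 to 183 with treatment (adjusted p = 0.254). Pparg itself overlapped, at 21.3 to 26.8 CPM in vehicle and 9.37 to 26.2 with treatment, with the 3 FGF19ΔKLB libraries at 12.3, 13.3 and 9.37 (adjusted p = 0.473). In fatty acid synthesis, 0 of 16 genes lay outside the vehicle range in all treated libraries, and 0 passed edgeR, DESeq2 or an unadjusted p under 0.05.

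Cidec and Cidea are also adipocyte genes, so markers of adipose tissue were read beside them. Of 10 adipose markers, 5 did not pass the filter on low counts: Adipoq, Lep, Plin1, Cfd and Retn. Over the vehicle libraries Plin1 and Lep were listed at 0, and Adipoq at 8, 0 and 0 counts, the equivalent of about 2 read pairs. FGF19WT library 1 held the most, with 139 counts of Adipoq and 202 of Lep, and the other 5 treated libraries had 0 of both. The summed level of the other 5, Cidec included, ranged from 53.3 to 64 CPM in vehicle and 26.6 to 56.5 with treatment. Cidec alone stood at 25.3 to 33.6 CPM in vehicle and 1.35 to 5.02 with treatment. The sum holds Cidec, so its fall does not show adipose tissue apart from Cidec. FGF19WT library 1 had the highest treated sum, 56.5 CPM, with Cidec at 3.93 CPM. It also had the highest Fabp4 (24.1 CPM), 74 counts of Plin1 and the highest treated Plin4 (54.8 CPM). Whether that library held adipose tissue was not tested. One of the summed markers, the adrenergic receptor Adrb3, lay above vehicle, at 0.996 to 1.38 CPM against 3.18 to 18.8 with treatment (adjusted p = 0.137 in edgeR).

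The called genes that RefSeq lists with a start site on GRCm38.p6 allow their promoters to be set side by side; 13 of 18 had an entry. The 250 bases before the start are shown for 3 genes that fell and 1 that rose, picked by hand. All 18 called genes lay wholly above or below vehicle in the 6 treated libraries, so this did not set these apart. They include Rdh16 and Plin5, among the 3 called genes with AGGTCA, and Ngef, the 1 with GGAAGT. The matches shown are therefore not a fair share of the 13. The Cidec stretch lies at chr6:113435761-113436010 (minus strand), Plin5 at chr17:56117549-56117798 (minus), Rdh16 at chr10:127800903-127801152 (plus) and Ngef at chr1:87573871-87574120 (minus). Capitals mark AGGTCA, the half-site that nuclear receptors read, and GGAAGT, the core of ETS factor sites, on either strand.
Cidec: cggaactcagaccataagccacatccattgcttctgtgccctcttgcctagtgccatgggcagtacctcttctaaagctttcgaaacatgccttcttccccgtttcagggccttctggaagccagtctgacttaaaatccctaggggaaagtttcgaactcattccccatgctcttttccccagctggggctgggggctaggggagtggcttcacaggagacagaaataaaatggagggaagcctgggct
Plin5: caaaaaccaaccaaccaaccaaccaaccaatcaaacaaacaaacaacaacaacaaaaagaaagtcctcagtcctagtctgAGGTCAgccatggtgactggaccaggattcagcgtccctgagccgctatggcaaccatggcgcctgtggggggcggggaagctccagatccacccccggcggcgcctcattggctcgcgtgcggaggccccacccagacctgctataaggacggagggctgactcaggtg
Rdh16: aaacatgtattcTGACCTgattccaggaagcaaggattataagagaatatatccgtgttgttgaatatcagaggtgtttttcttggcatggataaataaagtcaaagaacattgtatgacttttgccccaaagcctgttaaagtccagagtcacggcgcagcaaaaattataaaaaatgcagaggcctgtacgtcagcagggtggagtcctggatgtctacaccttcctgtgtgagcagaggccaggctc
Ngef: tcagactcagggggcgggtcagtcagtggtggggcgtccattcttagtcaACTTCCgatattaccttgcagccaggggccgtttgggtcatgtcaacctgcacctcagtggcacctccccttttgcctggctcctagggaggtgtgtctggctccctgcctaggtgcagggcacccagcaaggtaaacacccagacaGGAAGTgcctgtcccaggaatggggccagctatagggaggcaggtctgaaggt

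RefSeq starts Plin5 inside the gene model of the deposited table, so the end of its stretch is transcribed in that model. The Plin5 match starts 170 bases before the start site and the Rdh16 match, TGACCT on the strand shown, 238 bases before it. Ngef holds 2 ETS cores, 200 and 53 bases before its start, the first as ACTTCC. Of the 13 called genes with an entry, 3 hold AGGTCA on either strand (Gm40923, Rdh16 and Plin5) and 1 holds GGAAGT (Ngef). Over all 32851 promoters of this length the shares are 14% and 19.7%. A match describes these letters only.

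The other genes that fell have varied functions. Ephb2, a receptor for ephrins on neighbouring cells, had the smallest p of all genes: it stood at 9.48, 14.7 and 8.75 CPM in vehicle, 0.308, 0.259 and 0.0581 with FGF19WT and 0.117, 0.239 and 0.377 with FGF19ΔKLB. All treated libraries were near 0. Ephb2, on chromosome 4 from 136647539 to 136835988, fell by 5.59 on the log2 scale (SE 0.49, adjusted p = 0.0154 in edgeR), to 2.06% of vehicle, and was called in 7 of 9 fits that left out 1 library.

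Rdh16, a retinol and steroid dehydrogenase, was at 183, 159 and 150 CPM in vehicle and at 32.2 to 61.5 with treatment (median 44.5). The groups were well apart, and it fell to 27.8% of vehicle (log2 fold change -1.85, SE 0.21, edgeR adjusted p = 0.0184). It lies among near-identical retinol dehydrogenase copies and overlaps Rdh18-ps, so its counts may hold reads of both. Aldh1a7, an aldehyde dehydrogenase whose sequence is close to that of Aldh1a1, was at 290, 311 and 275 CPM in vehicle and 88.3 to 147 with treatment (median 113). It fell by 1.33 on the log2 scale (SE 0.18, adjusted p = 0.0468) and lost its call in each fit that left out 1 library (adjusted p 0.0668 to 0.227).

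Tln2, a talin that links integrins to the cytoskeleton, was even within each group: 12.6, 13.6 and 12.1 CPM in vehicle and 3.85 to 5.61 with treatment (median 4.91). It fell by 1.42 on the log2 scale (SE 0.15, adjusted p = 0.0178 in edgeR). Ttc7b, part of the complex that holds a phosphatidylinositol kinase at the plasma membrane, was at 8.97, 8.65 and 9.11 CPM in vehicle and 2.06 to 3.43 with treatment (median 2.98). It fell by 1.63 (SE 0.18, adjusted p = 0.0184), and predicted genes on both strands overlap it. Tmem87a, a membrane protein of the Golgi, was at 10.8 to 11.9 CPM in vehicle and 3.31 to 5.1 with treatment (median 4.95), and fell by 1.35 (SE 0.19, adjusted p = 0.0468). Its call was lost in each fit that left out 1 library (adjusted p 0.0672 to 0.261), and Ganc overlaps it on the opposite strand.

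The naming rule did not take 3 further genes that fell; they were chosen after their values were seen. Slc45a3, a sugar transporter of the plasma membrane, was at 26.6 to 32 CPM in vehicle and 11.8 to 16.7 with treatment (log2 fold change -1.07, SE 0.13, edgeR adjusted p = 0.0211). Abhd3, a phospholipase of medium-chain lipids, was at 38 to 51.1 CPM in vehicle and 19.6 to 26 with treatment (-0.95, SE 0.13, adjusted p = 0.0468). The non-coding RNA Gm40923 was at 0.835 to 1.27 CPM in vehicle and listed at 0 in 5 treated libraries. It rests on 61 read pairs in vehicle and 1 in the treated libraries, where the vehicle level was 114 times the treated one (95% interval 19.7 to 4580, counting error only; adjusted p = 0.0497).

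Only 4 genes rose. Ngef, a guanine nucleotide exchange factor downstream of ephrin receptors, stood at 27.3, 30.8 and 29.5 CPM in vehicle, 80.6, 50 and 88.8 with FGF19WT and 83.2, 69.4 and 69.6 with FGF19ΔKLB. The lowest treated library, FGF19WT 2, was still well above vehicle. Ngef rose 2.52-fold (log2 fold change 1.33, SE 0.19, edgeR adjusted p = 0.0468). It was called in 1 of 9 fits that left out 1 library, and Neu2 overlaps it on the opposite strand. Caprin2, an RNA-binding protein linked to Wnt receptor signalling, stood at 1.01, 1.6 and 1.25 CPM in vehicle and 3.69 to 5.39 with treatment (median 4.8). It rose 3.6-fold (1.85, SE 0.24, adjusted p = 0.0404), and the call was lost in each fit that left out 1 library (adjusted p 0.0662 to 0.222).

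The other 2 are not protein coding and were chosen after their values were seen. The transcribed pseudogene 9030619P08Rik was at 5.93, 10 and 5.54 CPM in vehicle and 28.3 to 61 with treatment (median 46.7), and rose 6.18-fold (log2 fold change 2.63, SE 0.31, edgeR adjusted p = 0.0213). Gm20427 was at 4.02, 2.86 and 1.42 CPM in vehicle and 11.4 to 25.3 with treatment (median 18.4), and rose 6.84-fold (2.77, SE 0.39, adjusted p = 0.0468). Gm20427 runs through H2-Ke6 and Slc39a7 on the same strand, so its reads may be theirs.

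**Figure D2:**
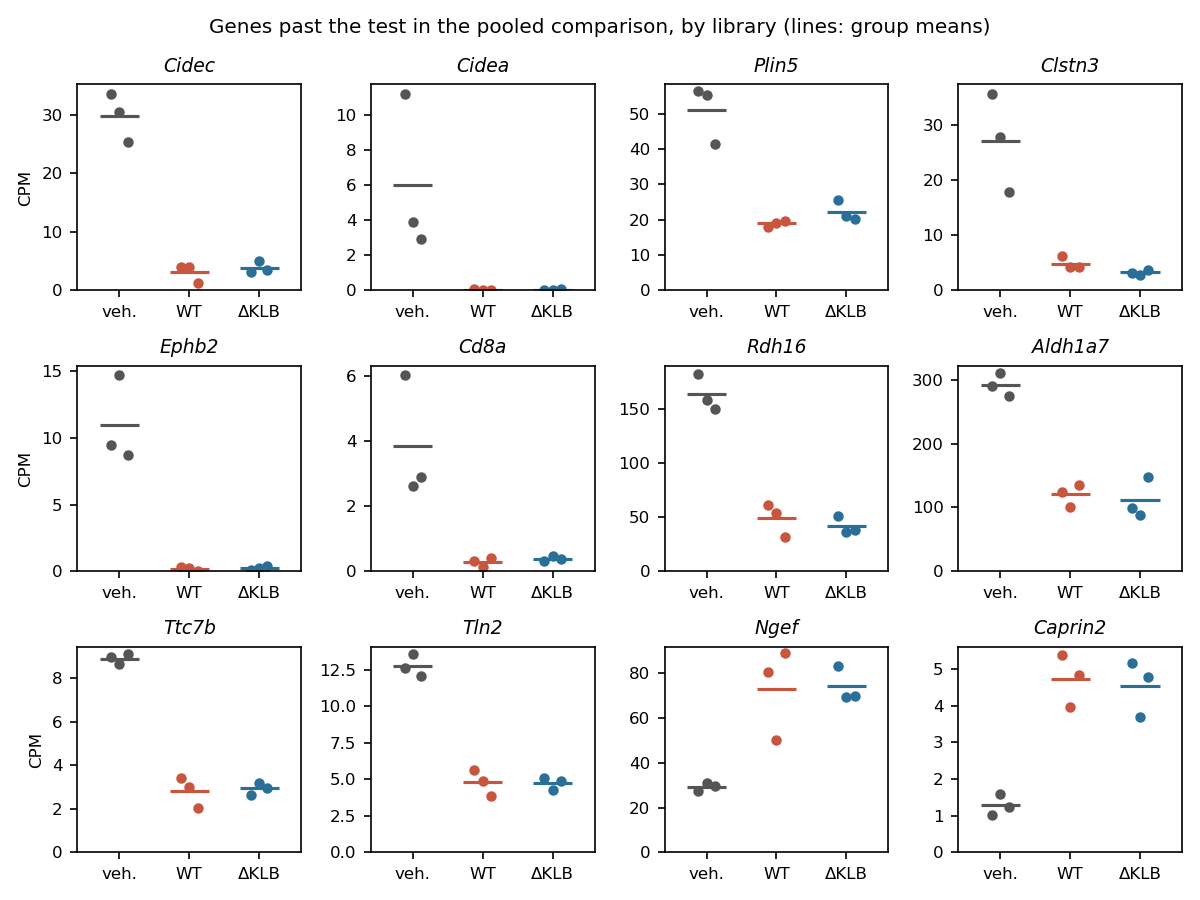
Levels in CPM of 12 genes past the pooled edgeR test, with 1 point per library (3 vehicle, 3 FGF19WT, 3 FGF19ΔKLB) and a line at each group mean; each vertical axis starts at 0. All 6 treated points lie below the vehicle points for the genes that fell, such as Cidec at 1.35 to 5.02 CPM, and above them for Ngef and Caprin2; the ranges of the forms overlap for these 3 genes and do not for Plin5 and Clstn3.

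The 2 forms were also set against vehicle on their own, in 1 model with 3 groups; these comparisons share the 3 vehicle libraries, so their values are given side by side and not as 2 independent tests. Cidec had a log2 fold change of -3.27 with FGF19WT and -2.94 with FGF19ΔKLB, Plin5 -1.42 and -1.20, Ephb2 -5.70 and -5.49, Tln2 -1.41 and -1.42, and Ngef 1.32 and 1.34. The direct difference between the forms does not use vehicle. FGF19ΔKLB minus FGF19WT was 0.32 for Cidec (95% interval -0.56 to 1.20), 0.23 for Plin5 (-0.14 to 0.59), -0.01 for Tln2 (-0.44 to 0.42) and 0.02 for Ngef (-0.46 to 0.50). It was 0.22 for Ephb2 (-1.16 to 1.60) and -0.58 for Clstn3 (-1.21 to 0.05). These intervals give the size of difference that the 3 libraries per form leave possible.

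No gene of 18142 passed edgeR for the difference between forms, with 2267 (12.5%) at an unadjusted p under 0.05; no other tool was run on it. Against vehicle, edgeR called 5 genes higher (0.0276%) and 15 lower (0.0827%) with FGF19WT, and 0 higher and 2 lower (0.011%) with FGF19ΔKLB. At an unadjusted p under 0.05 there were 3412 (18.8%) and 1515 (8.35%). The 2 called with FGF19ΔKLB were not compared with the 20 called with FGF19WT, since both lists use the same vehicle libraries. Over all 894 genes above vehicle without overlap, the mean change was larger with FGF19WT in 659, and over the 971 below in 752. FGF19WT libraries 2 and 3 lay furthest out: their median log2 differences from the vehicle mean were 0.87 and 1.15 for the genes above and -1.25 and -1.69 for those below. FGF19WT library 1 was at 0.42 and -0.58 and the FGF19ΔKLB libraries at 0.59 to 0.71 and -0.81 to -0.63, so library 1 lay closer to vehicle than any FGF19ΔKLB library.

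**Figure D3:**
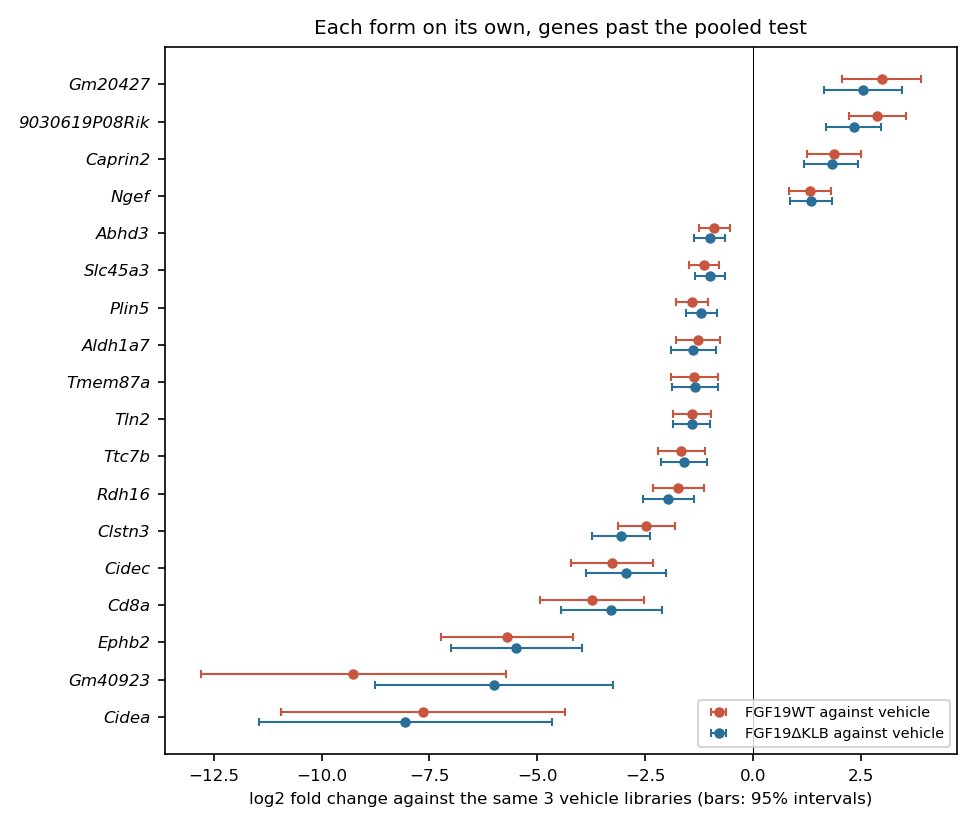
Log2 fold change of FGF19WT (red) and FGF19ΔKLB (blue) against the same 3 vehicle libraries for the 18 genes past the pooled test, with bars for 95% intervals from the edgeR model with 3 groups. The intervals of the 2 forms overlap in every row, and the widest belong to Cidea and Gm40923, whose treated libraries are at or near 0.

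Beyond single genes, 42 lists of pathways and cell type markers were counted. In 10 lists no tested member separated treated from vehicle, and 3 held a called gene: lipid droplet proteins, adipose markers and T and NK cell markers. The called adipose marker was Cidec, which the droplet list counts as well. Counting both directions, ribosomal proteins (20 of 25), T and NK cell markers (6 of 13), B and plasma cell markers (5 of 12) and ERK feedback genes (7 of 17) had the largest shares of members without overlap, beside 10.3% over all genes.

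**Figure D4:**
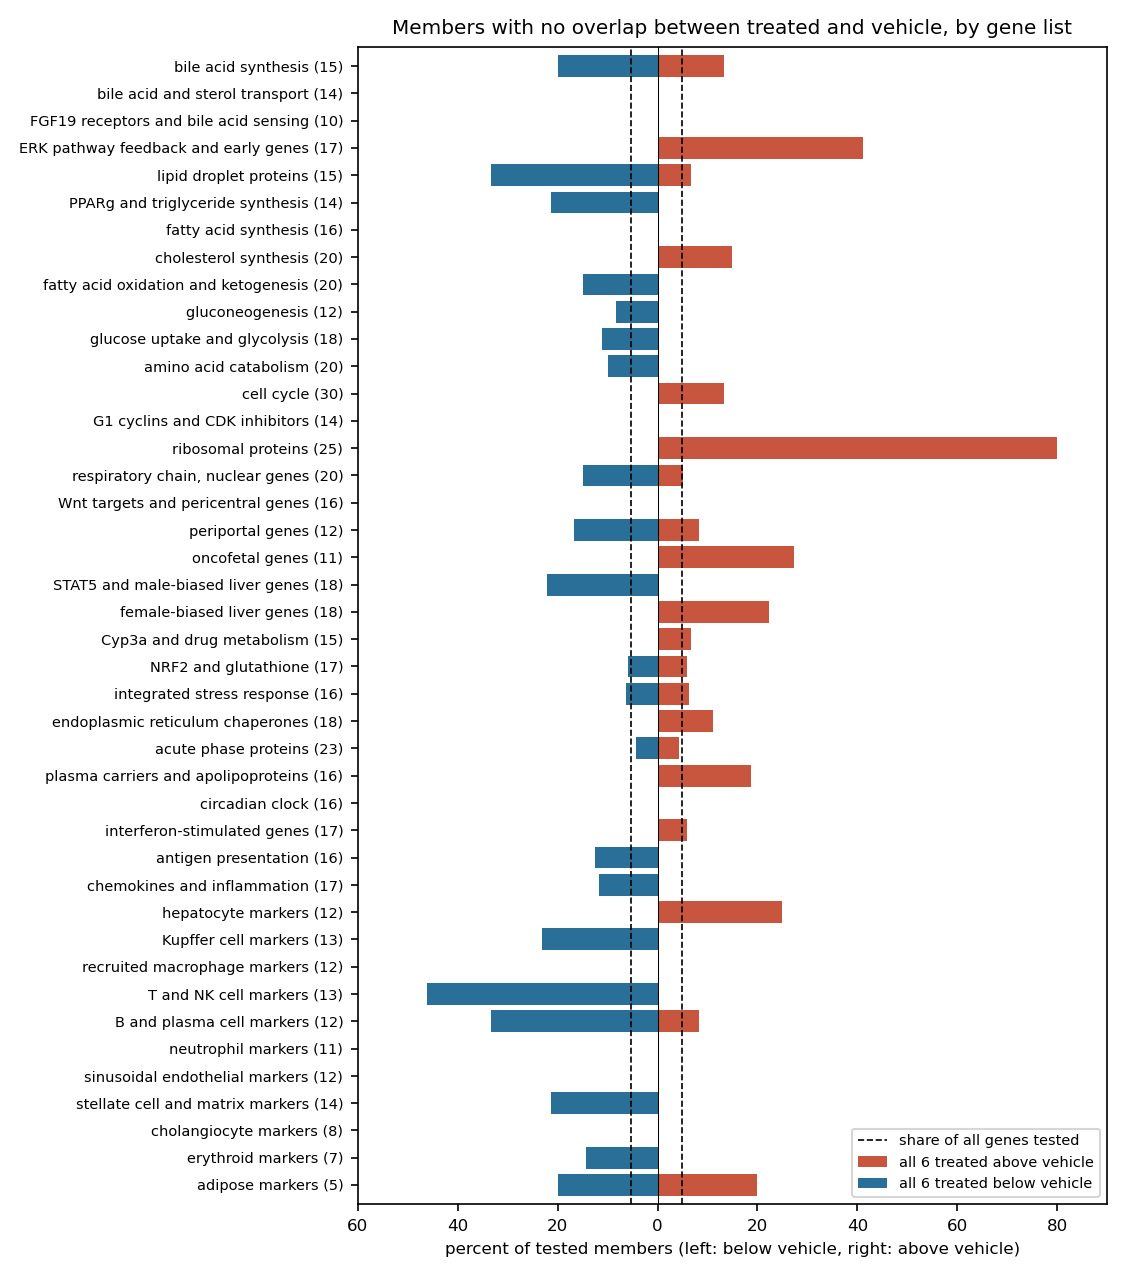
Share of tested members, in percent, whose 6 treated libraries all lay below (left, blue) or above (right, red) the 3 vehicle libraries, for 42 gene lists with the number tested in brackets; dashed lines mark 5.35% and 4.93%, the shares over all 18142 genes. Ribosomal proteins reach furthest to the right (20 of 25), and T and NK cell markers furthest to the left (6 of 13).

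In bile acid synthesis, 0 of 15 genes passed edgeR, with 2 higher and 3 lower at an unadjusted p under 0.05. DESeq2 passed 2 higher and 2 lower, and limma on FPKM 1 lower. Over all genes 12.2% had an unadjusted p under 0.05 in edgeR, and DESeq2 called 2.72% higher and 1.36% lower. Cyp8b1, the enzyme that makes cholic acid, stood at 219, 311 and 136 CPM in vehicle, 5.71, 1.21 and 0.885 with FGF19WT and 9.34, 0.957 and 47.6 with FGF19ΔKLB. All 6 treated libraries were below vehicle, with FGF19ΔKLB library 3 the nearest. The log2 fold change was -4.34 (SE 1.21, adjusted p = 0.257 in edgeR, 0.00504 in DESeq2 and 0.0237 in limma on FPKM). The conjugating enzyme Baat stood at 237 to 281 CPM in vehicle and 43.1 to 191 with treatment, and the sterol carrier Scp2 at 2287.5 to 2685 against 1200.4 to 1791.5. Cyp2c70, which makes the muricholic acids of mice, lay above vehicle at 300 to 501 CPM against 161 to 253, and the oxysterol hydroxylase Cyp39a1 at 28 to 55.5 against 15.9 to 23.9.

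Cyp7a1 itself was not part of the common response. It stood at 84.9, 103 and 70.1 CPM in vehicle, 3.66, 83.4 and 118 with FGF19WT and 9.49, 7.61 and 5.47 with FGF19ΔKLB. The 3 FGF19ΔKLB libraries and FGF19WT library 1 were low, while FGF19WT libraries 2 and 3 lay within or above the vehicle range. The pooled log2 fold change was -1.18 (SE 1.06, adjusted p = 0.656 in edgeR). Without FGF19WT libraries 2 and 3 it was -3.72 with an adjusted p of 0.00822. Cyp27a1, the first step of the second route to bile acids, split in the same way: 215 to 279 CPM in vehicle, 119 in FGF19WT library 1, 80.5 to 123 with FGF19ΔKLB, and 268 and 386 in FGF19WT libraries 2 and 3. Cyp7b1, of that same route, stood at 12.1 to 14.7 CPM in vehicle, while FGF19WT libraries held 12.9 to 30.4 and FGF19ΔKLB libraries 4.9 to 5.61.

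Of 10 genes of FGF19 receptors and bile acid sensing, 0 separated treated from vehicle, a count too small to tell from the 10.3% over all genes, and 0 passed edgeR, DESeq2 or an unadjusted p under 0.05. Fgfr4 stood at 36.4 to 36.9 CPM in vehicle and 32.3 to 49.7 with treatment. Its log2 fold change of 0.04 was -0.04 with library totals, so it has no stable sign. Klb stood at 19.8 to 29.2 CPM in vehicle, 10 and 11 in FGF19WT libraries 3 and 2, and 19.1 to 32.3 in the other 4 treated libraries. Nr0b2, the repressor SHP that bile acids induce, overlapped at 11.1 to 41.5 CPM against 29.5 to 49.3. Fgfr2 was at 13.6 to 15.2 CPM in vehicle, at 51.8 to 61.6 in FGF19WT library 1 and the FGF19ΔKLB libraries, and at 3.76 and 2.82 in FGF19WT libraries 2 and 3. Without those 2 its log2 fold change was 1.97 with an adjusted p of 0.00109 in edgeR, against 1.42 and 0.556 with them.

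Of 17 genes that ERK signalling induces, 7 lay above vehicle without overlap and 0 below, beside 4.93% and 5.35% over all genes. Of these 17, 16 had a positive log2 fold change. The median was 1.38 beside 0.02 over all genes, 0.65 without FGF19WT libraries 2 and 3, and 0.72 over the 14 on FPKM. None passed edgeR, while 11 had an unadjusted p under 0.05, 8 passed DESeq2 and 0 passed limma on FPKM. Over all genes 12.2% had an unadjusted p under 0.05 in edgeR, and DESeq2 called 2.72% higher. Dusp6, the phosphatase that switches off ERK, stood at 24.9, 20.4 and 19.1 CPM in vehicle, 38.9, 94.8 and 77.7 with FGF19WT and 49.7, 44.8 and 38.9 with FGF19ΔKLB. Every treated library was above vehicle, with FGF19WT libraries 2 and 3 highest (log2 fold change 1.42, SE 0.33, adjusted p = 0.205). The ETS factor Etv5 stood at 1.7 to 3.39 CPM in vehicle and 5.74 to 14.1 with treatment (1.77, SE 0.33, adjusted p = 0.121). The early gene Egr1 stood at 12.5 to 15.9 CPM and 29.3 to 172 (2.61, SE 0.57, adjusted p = 0.179).

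The other members without overlap, listed to complete the count, were Etv4 (0.102 to 0.214 CPM in vehicle, 0.366 to 1.28 with treatment), Dusp4 (0.975 to 1.32, 1.88 to 15.1), Dusp5 (0.678 to 1.04, 1.19 to 9.01) and Spred1 (12 to 15.5, 17.9 to 27.9). Spry4, a feedback inhibitor of the cascade, overlapped through FGF19WT libraries 2 and 3: it stood at 3.4 to 9.71 CPM in vehicle, 31.3 to 39.6 with FGF19ΔKLB, 37.1 in FGF19WT library 1 and 8.77 and 7.69 in FGF19WT libraries 2 and 3. Myc showed no common direction, at 3.7 to 4.64 CPM in vehicle and 1.41 to 15.3 with treatment, and its log2 fold change of 0.38 turned to -0.82 without FGF19WT libraries 2 and 3. Without those libraries 4 members were called higher: Dusp6 (adjusted p = 0.0268), Spry4 (0.0271), Etv5 (0.0446) and Egr1 (0.0446). Over all genes of that fit 0.449% were called higher.

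Sex-biased liver genes, which follow the pulse pattern of growth hormone through STAT5, lay on opposite sides of vehicle where they separated. Of 18 genes of STAT5 signalling and male bias, 4 lay below vehicle and 0 above. Of 18 female-biased genes 4 lay above and 0 below. Over all genes 5.35% lay below and 4.93% above. In the first list 11 had a negative and 7 a positive log2 fold change, Cish (0.98) and Socs2 (0.76) among the latter. In the second 14 had a positive and 4 a negative one. The median log2 fold changes were -0.25 and 1.73, -0.51 and 1.77 without FGF19WT libraries 2 and 3, and -0.81 and 0.97 on FPKM. Of the first list 0 passed edgeR, with 1 higher and 5 lower at an unadjusted p under 0.05, 3 past DESeq2 and 2 past limma on FPKM. Of the female-biased genes 0 passed edgeR, with 6 higher and 2 lower at an unadjusted p under 0.05. Of these genes 4 passed DESeq2 and 1 limma on FPKM. Cyp4a12a, a fatty acid hydroxylase of male liver, stood at 309, 79 and 167 CPM in vehicle and 0 to 5.2 with treatment (median 0.734). The vehicle level was 139 times the treated one in read pairs (95% interval 118 to 165, counting error only), and the log2 fold change was -7.06 (SE 1.23, adjusted p = 0.105 in edgeR). Its near-identical neighbour Cyp4a12b, chosen after its values were seen, stood at 4.38 to 25.1 CPM against 0 to 0.308, and reads may be shared between them.

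Elovl3, a fatty acid elongase of male liver, stood at 26.7, 22.6 and 5.28 CPM in vehicle and 0.115 to 1.35 with treatment (log2 fold change -4.94, SE 0.76, edgeR adjusted p = 0.0782). The complement gene C6 stood at 13.7 to 21.6 CPM against 3.34 to 11.7, and Ugt2b38 at 21.3 to 25.1 against 4.41 to 18.4. On the female side, Cyp2a4 stood at 9.47, 27.2 and 9.99 CPM in vehicle, 257, 77.6 and 176 with FGF19WT and 745, 854 and 1173.1 with FGF19ΔKLB. All treated libraries were higher, the FGF19ΔKLB ones most (5.14, SE 1.05, adjusted p = 0.144). Cyp2a4 shares most of its sequence with Cyp2a5, so its reads are uncertain. Cyp3a44 (0.371 to 0.937 CPM against 2.96 to 43.5), Prom1 (0.22 to 1.52 against 2.77 to 41.3) and Abcd2 (33.2 to 58.1 against 59.2 to 131) complete the female-biased members without overlap.

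The major urinary proteins, a cluster of near-identical genes on chromosome 4 that male livers secrete, were taken as a family after their values were seen. Of 16 Mup genes tested, 5 lay below vehicle without overlap and 0 above, beside 5.35% and 4.93% over all genes. The median log2 fold change was -3.15. Not every member was lower: Mup3 overlapped, at 850 to 1489.8 CPM in vehicle and 69.2 to 4760.7 with treatment (log2 fold change 0.58). In vehicle it was more abundant than Mup22. None passed edgeR (8 had an unadjusted p under 0.05, 2 passed DESeq2 and 1 passed limma on FPKM). Mup22 stood at 537, 306 and 147 CPM in vehicle and at 98.5, 106, 0, 1.58, 1.56 and 10.6 in the treated libraries; the others were Mup11, Mup12, Mup16 and Mup19. Counting may move reads between these copies.

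**Figure D5:**
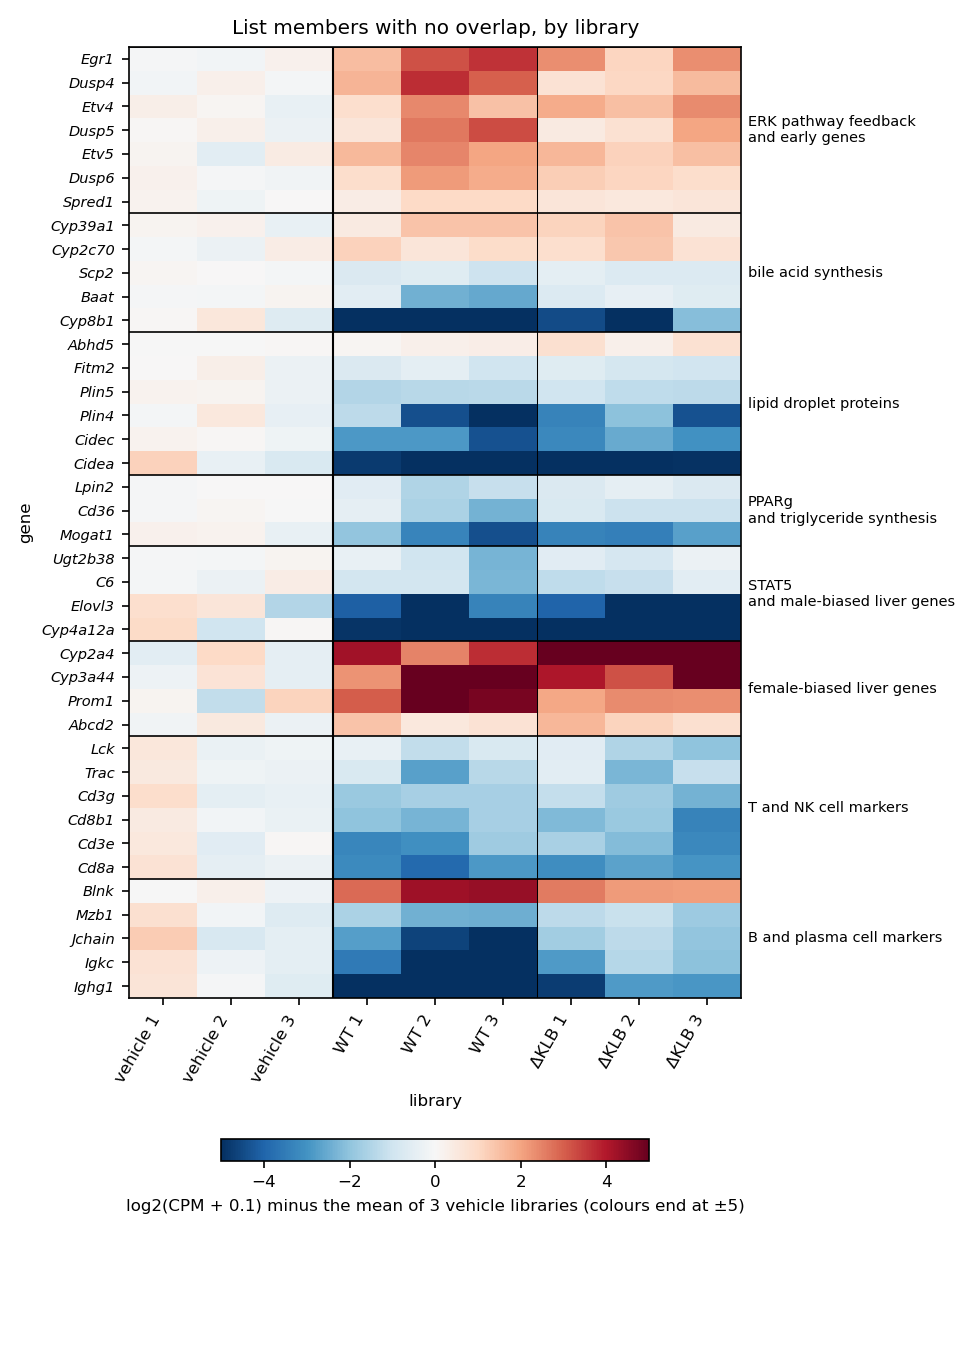
Colours give log2(CPM + 0.1) minus the mean of the 3 vehicle libraries for members without overlap of 8 lists (rows) in each of 9 libraries (columns), and end at ±5. ERK feedback and female-biased rows lie above vehicle (red), and most droplet, T cell and plasma cell rows below it (blue). Abhd5 and Blnk, of the droplet and B cell lists, lie above vehicle. Rows were picked for lying wholly above or below vehicle, so a constant side across the 6 treated columns follows from that choice. The strongest shades are often in FGF19WT 2 and 3.

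Cd8a, which marks cytotoxic T cells, is the 1 called gene of immune cells. It stood at 6.02, 2.62 and 2.9 CPM in vehicle, 0.308, 0.148 and 0.406 with FGF19WT and 0.323, 0.478 and 0.377 with FGF19ΔKLB. All treated libraries were low and even between forms. Cd8a fell by 3.50 on the log2 scale (SE 0.40, adjusted p = 0.0184 in edgeR), to 8.83% of vehicle, and was called in 2 of 9 fits that left out 1 library. In whole liver, fewer T cells and less RNA per T cell cannot be told apart.

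Of 13 T and NK cell markers tested, 6 lay below vehicle without overlap and 0 above, beside 5.35% and 4.93% over all genes. Of these 13, 11 had a negative log2 fold change, and the median was -1.50. Their summed level ranged from 10.7 to 21.8 CPM in vehicle and 4.15 to 8.64 with treatment. Cd8b1, the partner of Cd8a, stood at 0.704 to 1.27 CPM in vehicle and 0 to 0.218 with treatment, and the T cell receptor chains Cd3e and Cd3g at 0.732 to 1.67 and 0.996 to 2.66 against 0.0293 to 0.308 and 0.197 to 0.557. Trac and Lck complete the 6, and none of these other 5 passed edgeR. Themis, a T cell signalling gene chosen after its values were seen, stood at 7.69, 12.3 and 12.2 CPM in vehicle and 0.0494 to 1.19 with treatment (log2 fold change -4.44, SE 0.76, adjusted p = 0.102). Only 1 marker passed the filter of 1 FPKM, so this list gives 0 genes on that scale.

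Among 12 B and plasma cell markers, 4 transcripts of plasma cells lay below vehicle and 1 marker lay above; 8 had a negative and 4 a positive log2 fold change, and the median of -0.66 was -0.10 without FGF19WT libraries 2 and 3. Of the 12, 0 passed edgeR, with 5 at an unadjusted p under 0.05, 4 past DESeq2 and 1 past limma on FPKM. Their summed level was 172 to 410 CPM in vehicle and 30.5 to 91.1 with treatment, most of it from antibody chains. Igkc, the kappa constant chain, stood at 189, 95.8 and 79.8 CPM in vehicle and 2.23 to 42.4 with treatment (median 12.7), and Ighg1 at 67.5 to 162 against 0.174 to 14.1. Jchain, which joins antibody units, stood at 10.4 to 44.6 CPM against 0.0581 to 7.42, and Mzb1 at 0.448 to 1.4 against 0.0581 to 0.299. Of 97 antibody genes tested, a family taken after values were seen, 39 lay below vehicle and 0 above. The shares over all genes were 5.35% and 4.93%. These genes share sequence, and the deposited counts may split reads among them. The member above vehicle was Blnk, an adaptor of the B cell receptor, at 0.985 to 1.45 CPM in vehicle and 5.44 to 26.3 with treatment (3.43, SE 0.67, adjusted p = 0.13).

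Markers of other resident cells that lay below vehicle were lowest in FGF19WT library 3. Of 13 Kupffer cell markers, 3 lay below vehicle, the complement chains C1qa (31 to 40 CPM against 8.21 to 29.4), C1qb (32 to 50.8 against 9.85 to 30) and C1qc (28.7 to 40 against 6.53 to 27.3). Their list summed to 413 to 520 CPM in vehicle and 64.2 to 430 with treatment. Of 14 stellate cell and matrix markers, 3 lay below vehicle: Dcn (156 to 186 CPM against 0.769 to 102), Lum (5.61 to 6.51 against 0 to 4.84) and the retinol-storing enzyme Lrat (11.8 to 19.5 against 0.45 to 11.4). That list summed to 303 to 383 CPM and 126 to 281. Sinusoidal endothelial, recruited macrophage, neutrophil and cholangiocyte markers had 0 members without overlap. Hepatocyte markers had 3 of 12 above vehicle. Over all genes 4.93% lay above vehicle and 5.35% below, and these small counts were not tested against those shares. The part of these cell types in the changes of other genes was not tested.

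Ribosomal protein genes were the list with the most members above vehicle. With TMM factors 20 of 25 lay above, beside 4.93% of all genes. With library totals or on FPKM it was 16, beside 2.77% and 3.54% of all genes. The median log2 fold change was 0.75. None of the 25 passed edgeR, 23 had an unadjusted p under 0.05, 13 passed DESeq2 and 0 passed limma on FPKM. Over all genes 12.2% had an unadjusted p under 0.05 in edgeR, and DESeq2 called 2.72% higher. Rpl3, of the large subunit, stood at 157, 152 and 165 CPM in vehicle, 285, 295 and 296 with FGF19WT and 303, 293 and 236 with FGF19ΔKLB. The treated libraries were close to each other and did not overlap vehicle (0.85, SE 0.14, adjusted p = 0.102 in edgeR). Taken as a family after values were seen, 63 of 80 Rps and Rpl genes lay above vehicle and 0 below. Rps25, of the small subunit, stood at 81.5 to 92.4 CPM against 165 to 402. These genes have many processed copies in the genome, which may take up reads.

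Of 30 cell cycle genes, 26 had a positive log2 fold change. Without overlap, 4 lay above vehicle and 0 below, beside 4.93% and 5.35% over all genes. Their median log2 fold change of 2.40 rested on FGF19WT libraries 2 and 3: it was 0.75 without them, and 0.16 over the 8 genes with enough signal on FPKM. None passed edgeR, 19 had an unadjusted p under 0.05, 10 passed DESeq2 and 0 of those 8 passed limma on FPKM. Over all genes 12.2% had an unadjusted p under 0.05 in edgeR, and DESeq2 called 2.72% higher. Mki67, a marker of dividing cells, stood at 0.908, 1.48 and 0.704 CPM in vehicle, 2.92, 27.2 and 37.1 with FGF19WT and 5.87, 6.07 and 6.13 with FGF19ΔKLB. All treated libraries were above vehicle, FGF19WT 2 and 3 far more (3.79, SE 0.97, adjusted p = 0.236). Without those 2 libraries its log2 fold change was 2.35 with an adjusted p of 0.0371. Ccnb2, Aurkb and Kif11, which drive mitosis, were the other 3. Ccnd1, cyclin D1, overlapped at 15.1 to 25.6 CPM against 16.3 to 109.

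Genes of fetal liver separated in 3 of 11 cases: Afp, H19 and Dlk1. All lay above vehicle, as did 4.93% of all genes. Afp, the fetal counterpart of albumin, stood at 1.9, 2.78 and 2.58 CPM in vehicle, 6.67, 195 and 407 with FGF19WT and 5.4, 3.96 and 14.5 with FGF19ΔKLB. FGF19WT libraries 2 and 3 were far above all others, and the rest were slightly above vehicle. The pooled log2 fold change was 5.44 (SE 1.93, adjusted p = 0.335 in edgeR), and 1.66 without FGF19WT libraries 2 and 3. The imprinted RNA H19 stood at 1.25 to 1.44 CPM against 2.84 to 23.8 (2.75, SE 0.73, adjusted p = 0.243). Dlk1 stood at 0 to 0.134 CPM against 0.179 to 4.7, with 4 read pairs over the vehicle libraries.

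Bile acid and sterol transport had 0 of 14 genes without overlap, where 10.3% of all genes had none. Without FGF19WT libraries 2 and 3, 4 lay above vehicle and 1 below, and 3 were called higher in edgeR: Abcg5 (adjusted p = 0.0135), Abcg8 (0.0376) and the organic anion carrier Slco1a4 (0.0424). With all 9 libraries the sterol exporters Abcg5 and Abcg8 stood at 47.6 to 63 and 37.5 to 44.8 CPM in vehicle and at 35.8 to 143 and 43.1 to 96.3 with treatment, and both overlapped through FGF19WT library 2. Wnt targets and pericentral genes had 0 of 16, although their median pooled log2 fold change was 2.25 (0.41 over the 12 on FPKM). That median rested on FGF19WT libraries 2 and 3. Without them it was -0.84, and 7 of 16 genes lay below vehicle and 0 above. In edgeR 3 were then called lower, Slc1a2 (adjusted p = 0.0296), Oat (0.0437) and Glul (0.0493). Over all genes of that fit, 8.57% lay below vehicle and 8.12% above, and 0.545% were called lower and 0.449% higher. Glul, glutamine synthetase, stood at 549 to 1000 CPM in vehicle, 185 in FGF19WT library 1, 224 to 364 with FGF19ΔKLB, and 14770.2 and 12685.4 in FGF19WT libraries 2 and 3, so FGF19WT library 1 lay with the other form. Fasn, fatty acid synthase, stood at 84 to 379 CPM in vehicle, while FGF19WT libraries held 102 to 155 and FGF19ΔKLB libraries 528 to 606, so its pooled log2 fold change of 0.64 described neither form. Scd1, which desaturates fatty acids, overlapped at 2840.5 to 6167.8 CPM against 802 to 5469.5. The gluconeogenic genes G6pc (98.1 to 392 CPM against 11.7 to 134) and Pck1 (1230.6 to 2713 against 43.3 to 2277.7) overlapped as well, and 1 of 12 genes of that pathway, Pcx, lay below vehicle at 252 to 452 CPM against 497 to 759.

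The widest gaps among genes above vehicle that did not pass the test belonged to genes near 0 in vehicle. Vpreb3, of early B cells, Miox, which degrades inositol, and the amylase Amy2a3 were listed at 0 in all 3 vehicle libraries. Against a floor of 12 counts (3 read pairs) per library, their treated levels were at least 29.3-fold, 34.4-fold and 19.9-fold higher on average. Most of those reads came from FGF19WT libraries 2 and 3: Vpreb3 stood at 4.66 and 21.5 CPM there and 0.352 to 0.924 in the other 4 treated libraries, and Miox at 10.6 and 17.4 against 0.234 to 3.24. Amy2a3 is 1 of several near-identical amylase copies, and its lowest treated library, at 0.0879 CPM, was below that floor. Adgrf1, an adhesion receptor, stood at 0 to 0.176 CPM in vehicle and 1.66 to 18 with treatment.

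Akr1c18, which inactivates progesterone, stood at 1.07, 1.3 and 0.422 CPM in vehicle, 21.9, 1048.6 and 787 with FGF19WT and 19.2, 14.6 and 91.1 with FGF19ΔKLB (log2 fold change 8.47, SE 2.14, edgeR adjusted p = 0.236). Every treated library was more than 10 times the highest vehicle one. Cyp3a16, a fetal and female cytochrome with close relatives, stood at 0.571 to 2.52 CPM against 20.1 to 217 (5.94, SE 1.13, adjusted p = 0.121). Scn8a, a sodium channel, stood at 0.2 to 0.448 CPM against 2.1 to 8.8 (3.64, SE 0.61, adjusted p = 0.102). Pnliprp1, a lipase relative of the pancreas, stood at 0.2 to 0.307 CPM against 1.32 to 591. Without FGF19WT libraries 2 and 3, Vpreb3 (adjusted p = 0.0271), Cyp3a16 (0.0371) and Scn8a (0.0299) passed edgeR and Akr1c18 (0.0542) did not.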

How the data were processed

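Liver RNA of 9 libraries was measured by RNA-seq: vehicle, FGF19WT and FGF19ΔKLB, 3 each. Per the submitters' processing notes the tools were Bowtie 0.12.2, HISAT2 2.0 and StringTie 1.3.0, with no role given, and the build mm8. All 28517 gene identifiers, chromosomes and starts of the table match GENCODE M21 on GRCm38, so coordinates are on GRCm38. The authors deposited an expected count per gene and library and an FPKM value, both in 1 table. The counts are whole and not scaled by library, but 1 read pair gives about 4 counts, and the main fit used them undivided. With counts divided by 4, 14555 genes were tested and 32 called, all 18 of the main fit among them. Aligner settings and use of strand are not given in the sources used here.

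The comparison was fitted to the counts with edgeR 4.0.16 (R 4.3.3): 2 groups (6 treated, 3 vehicle), TMM factors, filterByExpr, robust quasi-likelihood fit with 7 residual degrees of freedom, and Benjamini-Hochberg adjustment over 18142 genes at 0.05. Separation used TMM CPM. Forms were compared in a model with 3 groups. No gene list was tested as a set. Members and lists were chosen with earlier results of these data known. On simulated counts with known answers, over 17550 genes, the pooled fit recovered 8% of genes changed 2-fold and 72% at 4-fold. It recovered 82% at 8-fold and 83.7% at 16-fold, and called 10 unchanged genes. The simulated libraries had no difference between forms and no joint shift of FGF19WT libraries 2 and 3. Only genes with a mean of at least 1 CPM were changed. These shares therefore do not give the recovery in the real libraries.

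Genes were named by rule: 25 of FGF19 biology always, up to 10 per direction by widest gap (called ones first, mean of at least 1 CPM, protein coding, no predicted-gene symbol), up to 8 called per direction by smallest p, and up to 4 per list; others are said to have been chosen after their values were seen or complete a count. The gap uses log2 CPM with a prior count of 2. Floors stand for 3 read pairs of 4 counts. Intervals of read-pair ratios are exact at 95%. Replicate numbers are shared by the groups. Correlations of same-numbered deviations ran from -0.05 to 0.15, and those of other pairs from -0.18 to 0.14. With 3 libraries per group these values cannot tell whether the numbers pair libraries. Alternatives were other filters, size factors, DESeq2 1.42.0, limma 3.58.1 on log2(FPKM + 1) and log2(FPKM + 0.1) (genes reaching 1 FPKM in 3 libraries), 3 groups, a replicate block, counts divided by 4, and leaving out libraries. The 250 promoter bases come from RefSeq.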

Additional observations from a re-analysis of the deposited data

Results flagged for a closer look

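Among 125 genes examined, 15 had 1 of the 6 treated libraries far from the other 5: its gap to the nearest of them, as a share of the whole range, was above 0.625, Dixon's critical value at the 95% level. That level holds for 6 normally distributed values of 1 population. These are untransformed CPM pooled over both forms, so the share that passes by chance is not known here. In 7 of these genes the library was FGF19ΔKLB 3. It held 47.6 CPM of Cyp8b1 (others 0.885 to 9.34), 17.1 of Mup19 (0 to 4.16), 135 of Sqle (35 to 57.4), 119 of Lss (32 to 62.6), 25912.4 of Trf (15368 to 17921.1) and 349 of Pdia6 (204 to 247). It also held the lowest Rpl3, at 236 CPM beside 285 to 303.

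FGF19WT library 1 stood out in the paired cytochromes Cyp4a12a, at 5.2 CPM beside 0 to 1.38, and Cyp4a12b, at 0.308 beside 0 to 0.0983. FGF19WT library 2 stood out in Plin2, at 1197.4 CPM beside 423 to 615, and in Mup12, at 0.0987 beside 0 in all others. FGF19WT library 3 stood out in Ccnd1, at 109 CPM beside 16.3 to 49.6, in Vpreb3, at 21.5 beside 0.352 to 4.66, and in Sdha, at 211 beside 332 to 398. FGF19ΔKLB library 2 held the single treated trace of Gm40923, at 0.0449 CPM. The ratios of gap to range were 1 for Gm40923 and Mup12, 0.82 for Cyp8b1, 0.80 for Vpreb3, 0.78 for Sqle, 0.76 for Mup19 and Trf, 0.75 for Plin2, 0.74 for Cyp4a12a, 0.73 for Rpl3, 0.70 for Pdia6, 0.68 for Cyp4a12b, 0.65 for Lss and 0.64 for Ccnd1 and Sdha.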

How the results depend on the processing

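The number of genes called higher and lower, 4 and 14, moved with the test. DESeq2 gave 493 and 246 (382 and 234 of them without overlap), limma 10 and 62 on log2(FPKM + 1) and 9 and 25 on log2(FPKM + 0.1), the model with 3 groups 7 and 37 (7 and 36 without overlap), and counts divided by 4 gave 28 lower. Without FGF19WT libraries 2 and 3, the counts were 79 and 96, with 1430 and 1508 genes separated. Leaving out 1 library gave 0 to 3 called higher and 0 to 10 lower, and 979 to 1448 separated above and 1064 to 1614 below vehicle. Separated genes numbered 580 and 591 with a filter of 5 CPM, 502 above with library totals and 380 above on FPKM. With the replicate block 1 gene was called higher and 4 lower, and whether the numbers pair these libraries could not be told.

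Over the 125 named genes and all alternatives, 2145 of 2426 values kept direction and side of the threshold, 144 lost the call, 119 gained it and 18 changed sign. The sign changed in Cyp7b1, Nr0b2, Fgfr4, Klb, Myc and Plin2. Cyp7b1 (-0.09) ran from -0.58 to 0.08 when 1 library was left out, Nr0b2 (0.30) from -0.09 to 0.65, Fgfr4 (0.04) from -0.05 to 0.09, Myc (0.38) from -0.26 to 0.58 and Plin2 (0.09) from -0.22 to 0.34. Fgfr4 was -0.04 with library totals and -0.04 and -0.05 in the limma fits. Klb (-0.18) was 0.15 without FGF19WT libraries 2 and 3. Myc was -0.15 in limma on log2(FPKM + 0.1) and -0.82 without FGF19WT libraries 2 and 3. Plin2 was -0.04 in both limma fits and -0.20 without FGF19WT libraries 2 and 3. The cause of these differences was not tested. Genes at a few read pairs, such as Cidea, Gm40923 and Cd8b1 with treatment, are limited by depth.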

Other observations

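Secreted proteins and sterol synthesis held further genes above vehicle in all 6 treated libraries, none of them past edgeR. Over all genes tested, 4.93% lay above vehicle in this way. Of 16 plasma carriers, 3 did so: fetuin Ahsg stood at 3411.2 to 3743.4 CPM in vehicle and 5198.6 to 6860 with treatment, apolipoprotein Apoa1 at 5190 to 9290.8 against 10802.7 to 22873.3, and transferrin Trf at 11492.3 to 14811.3 against 15368 to 25912.4. Apcs, serum amyloid P, stood at 123 to 244 CPM against 253 to 988. It was 1 of 23 acute phase genes, of which 15 had a negative and 8 a positive log2 fold change (median -0.21). Saa2 of that list lay below vehicle without overlap, at 81 to 526 CPM against 2.74 to 74.6. Among 20 cholesterol synthesis genes, those above vehicle included Sqle (19.1 to 30.7 CPM against 35 to 135) and Lss (23.5 to 31.7 against 32 to 119), the latter by a narrow gap of 0.01 on the log2 scale. The chaperone Pdia6 stood at 130 to 155 CPM against 204 to 349, and the interferon-induced Oas1a at 2.39 to 3.6 against 5.64 to 20.7.

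Genes of fat oxidation were mostly lower with treatment, none of them past edgeR. Over all genes tested, 5.35% lay below vehicle without overlap and 4.93% above. Of 20 genes of fatty acid oxidation, 16 had a negative log2 fold change (median -0.38) and 3 lay below vehicle: Cpt2 (139 to 158 CPM against 65.6 to 110), Etfdh (270 to 347 against 97.7 to 247) and Acadm (356 to 546 against 148 to 350). Of 20 nuclear genes of the respiratory chain, Ndufs1, Uqcrc2 and Sdha lay below vehicle with TMM factors, and 9 did with library totals or on FPKM, so this count depends on the scaling. Cox4i1 of the same list lay above, at 211 to 263 CPM against 286 to 448. Antigen presentation had H2-Aa (26.7 to 46.6 CPM against 11.1 to 25) and H2-Eb1 (19.7 to 29.8 against 8.55 to 18.3) below vehicle, and the chemokine Ccl5 stood at 2.92 to 6.92 against 0.901 to 2.68. The heme enzyme Alas2 stood at 41.8 to 70.9 CPM against 9.99 to 26.3 (log2 fold change -1.51, SE 0.30, edgeR adjusted p = 0.13), while the globin genes of its erythroid list overlapped.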
